A study of Mus musculus with 20 samples.

Results

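The cathepsin genes Ctsb, Ctsc, Ctsd, Ctse, Ctsh, Ctsl, Ctss and Ctsz were followed across 20 mouse Clariom S microarrays. A gene was taken as measured when a probe set carried its symbol and no other, and of several such probe sets the one brightest on average over the 20 arrays was used. This gave 7 of the 8 genes, among 19572 probe sets with 1 symbol for 19505 genes. Ctsd is not analysed here. The arrays formed 10 groups of 2. In the 4 cultured groups, marrow cells of female wild-type C57BL/6 mice that had been depleted of mature lineages were grown in medium with erythropoietin. The cytokine interleukin 6 (IL-6) was present at 100 ng/mL from the start in D1-IL6 and D2-IL6 and absent from D1-Control and D2-Control. The labels do not define D1 and D2 further, and the series states that 2 wild-type mice gave these cells. The other 6 groups were labelled as erythroblasts of C57BL/6 mice aged 1 year, which lacked both mDia1 and miR-146a (DKO) or were wild type for both (DWT). By the labels, stage I were proerythroblasts. Stage II+III pooled the basophilic with the polychromatic cells, and stage IV held orthochromatic cells. Each genotype was sampled at all 3 stages. The DKO arrays came from 2 female mice, and the labels do not tie the arrays of different stages to a mouse. Replicate 1 of DWT was a male and replicate 2 a female mouse at every stage. The labels state neither how the stages were isolated nor whether the deletions are confined to a tissue.

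Cathepsins are proteases of the endosomes and lysosomes. They are made as inactive precursors, reach the lysosome largely through mannose 6-phosphate receptors and become active in its acid interior, where they degrade proteins and trim antigens for MHC class II molecules. Cystatins and stefins inhibit the cysteine cathepsins. Monocytes, macrophages and dendritic cells are rich in several of them, and maturing red cells lose their lysosomes. Of the measured genes, Ctsc, Ctsh and Ctsz encode cysteine exopeptidases. Cathepsin C removes dipeptides and activates the serine proteases of leukocyte granules, cathepsin H is an aminopeptidase and cathepsin Z a carboxypeptidase. Ctsb, Ctsl and Ctss encode cysteine endopeptidases, of which cathepsin B also works as a carboxypeptidase and cathepsin S cleaves the invariant chain of MHC class II in antigen-presenting cells. Ctse encodes an aspartic protease of endosomes that in humans is also known from the red cell membrane.

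All values are log2 signals normalized by the authors, and a difference of 1 is a 2-fold change. Signals below 7.25 to 7.74, the 95th percentile of the background probe sets of each array, are called near background. In the limma fits, a gene with an adjusted p under 0.05 is said to have risen or fallen, and errors are standard errors (SE) of a difference with 2 arrays per group. The labels do not say that the 2 arrays of a cultured group were separate cultures, so p-values there measure only the spread between arrays. Arrays of a group correlated across probe sets at r = 0.970 to 0.994, apart from the DKO-I pair at 0.903, where replicate 2 reached at most 0.909 with any other array. The cathepsin differences that rest on DKO-I are therefore given with and without that array. Diaph1, the gene of mDia1, read 7.45 and 7.25 in DKO-I, 7 and 7.59 in DKO-II+III and 7.22 and 6.87 in DKO-IV. It read 10.76 and 11.49 in DWT-I, 10.41 and 11.07 in DWT-II+III and 9.69 and 9.29 in DWT-IV. All 6 DKO arrays were near background for this gene and all 6 DWT arrays above it. Of the erythroid marker genes, 8 were measured and all of them lay above background in every group except DKO-I, where each array had 6 of 8. Gata1 and Epor were near background in DKO-I replicate 1, and Tfrc and Epor in replicate 2.

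Across the 10 groups, 5 cysteine cathepsins shared a profile that Ctsb and Ctse did not follow. Over the 8 cultured arrays alone Ctsb ran with these 5, at r = 0.62 to 0.89, but over a much smaller range. Ctse had r = 0.22 to 0.73 with them there. Ctsh, Ctsc, Ctsz and Ctss had their lowest mean in D2-Control, and Ctsl had its lowest in DWT-IV with D2-Control next to it. Ctsh varied over 8.45 between group means. It was highest in DWT-I (14.73), followed by DKO-II+III (14.66), DKO-I (14.35) and DWT-II+III (13.71), and neighbours in this run overlapped. The DKO-I arrays of Ctsh read 15.20 and 13.49, the lower in replicate 2. The cultured groups D2-IL6, D1-IL6 and D1-Control lay at 12.83, 12.25 and 12.07 around DKO-IV at 12.61, again with overlapping neighbours, and DWT-IV (9.48) and D2-Control (6.28) each stood clear below. Ctsc varied over 7.55 and was highest in DKO-I (14.32), clear of DKO-II+III (13.01), which overlapped DWT-I (12.95). D1-IL6, D2-IL6 and DWT-II+III overlapped near 12.1, DKO-IV (10.07) overlapped D1-Control (9.82), and DWT-IV (8.37) and D2-Control (6.77) were the lowest.

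Ctsz had its highest mean in DKO-II+III (14.21), clear of DWT-I (13.61), and its lowest in DWT-IV (9.97) and D2-Control (7.55), which did not overlap. Its DKO-I arrays read 14.61 and 12.27, the lower in replicate 2. Ctss was highest in DKO-I (13.43), DKO-II+III (13.18) and DWT-I (12.80), with no overlap between these neighbours, and lowest in DWT-IV (9.61) and D2-Control (8.12). Ctsl was above background in 15 of 20 arrays, the fewest among the 7 genes. Its highest means were 10.25 in DKO-I and 9.59 in D2-IL6, which overlapped, and its lowest were DKO-IV (7.43), D2-Control (7.24) and DWT-IV (6.92), which also overlapped. Ctsb stayed above background in all 20 arrays and varied over 1.56 between group means, with 16.20 in DWT-IV at the top and 14.64 in DKO-I at the bottom. That lowest mean rests on DKO-I replicate 2 (13.80), as replicate 1 read 15.47. The only neighbours in the Ctsb order that did not overlap were DWT-II+III (15.95) and DWT-I (15.59). Ctse had its highest means in DWT-IV (17.44) and DKO-IV (17.43), which overlapped, and its lowest in D2-IL6 (13.65), D2-Control (13.27) and DKO-I (9.90), none of which overlapped. The DKO-I arrays of Ctse read 13.02 in replicate 1 and 6.78 in replicate 2. The cultured and fresh groups differ in origin and handling, and no test was made between them.

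**Figure D1:**
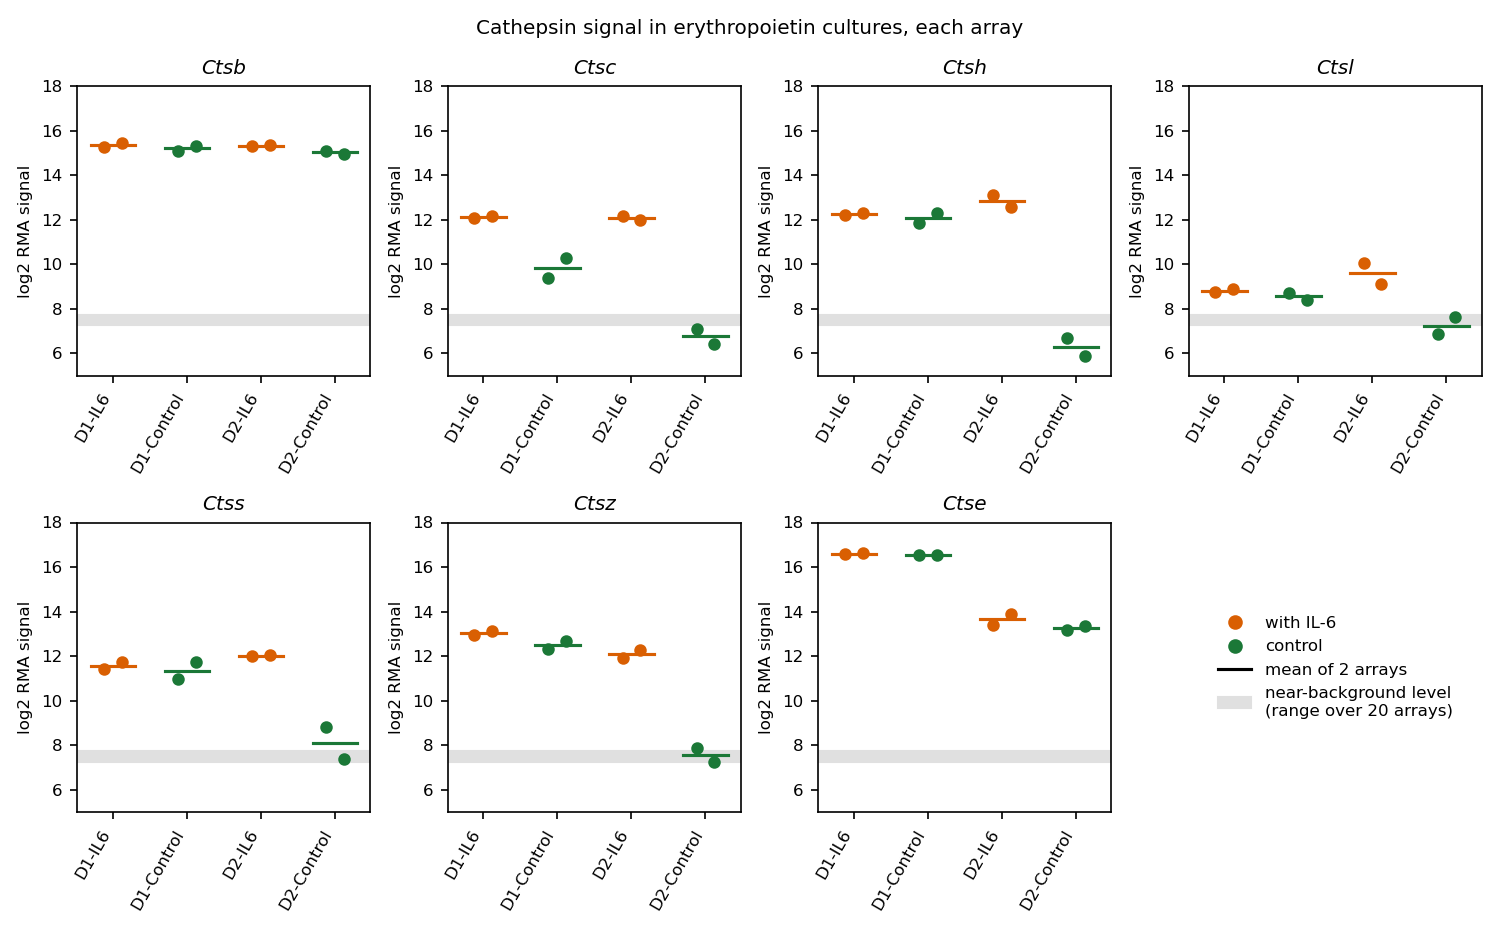
Log2 RMA signal of the 7 cathepsin genes in the 4 cultured groups. Points are single arrays, horizontal lines are means of 2 arrays and the grey band is the range of the near-background level over the 20 arrays. The D2-Control arrays of Ctsc (7.10 and 6.44) and Ctsh (6.70 and 5.86) lie in or under the band, while the D2-IL6 arrays of the same genes lie at 12 to 13.10.

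At the earlier collection, D1, the contrast of IL-6 and control cultures asked how the cytokine changed these transcripts. No cathepsin passed, and Ctsc showed the largest difference of the 7. Ctsc read 12.09 and 12.15 in D1-IL6, against 9.36 and 10.29 in D1-Control, and both IL-6 arrays were above both controls. The difference was 2.30 ± 0.34 and did not pass (adjusted p = 0.0768). It passed when dim probe sets were left out of the fit (adjusted p = 0.0281), and its adjusted p was 0.143 after quantile normalization. Without D1-Control replicate 2, which leaves 1 control array, the Ctsc difference was 2.76. Ctsz read 12.93 and 13.14 in D1-IL6, against 12.33 and 12.70 in D1-Control, a difference of 0.52 ± 0.27. Those arrays did not overlap either. Ctsh read 12.20 and 12.30 in D1-IL6 and 11.84 and 12.30 in D1-Control. Ctss read 11.41 and 11.74 in D1-IL6 and 10.96 and 11.74 in D1-Control. Both genes overlapped between the groups.

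For Ctsl the D1-IL6 arrays read 8.77 and 8.87, against 8.71 and 8.41 in D1-Control. For Ctsb they read 15.28 and 15.44, against 15.07 and 15.32. Ctse, the aspartic member, read 16.57 and 16.61 in D1-IL6, against 16.53 and 16.52 in D1-Control. These last differences were 0.26, 0.16 and 0.06. In limma 0 of 7 cathepsins passed at D1, where 0.0511% of all probe sets passed in either direction. At an unadjusted p under 0.05 there were 554 probe sets, and 1 cathepsin, Ctsc, was among them. Of the related lists, 1 of 6 granule serine proteases that cathepsin C can activate rose: Prtn3, which encodes proteinase 3, by 2.46 ± 0.27 (adjusted p = 0.0147). That call was lost on leaving out either D1-IL6 array or D1-Control replicate 1, in a fit with no intensity trend and in 1 fit of all 20 arrays. No member of the other lists described below passed at D1. The arrays of 4 of 7 cathepsins did not overlap in the higher direction, beside 17.8% of all probe sets. Of 10 monocyte and macrophage marker genes 0 passed, at a mean of 11.06 and 11.19 in D1-IL6 and 10.41 and 10.88 in D1-Control.

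At the later collection, D2, the same contrast was drawn, and here most of the cysteine cathepsins were far higher with IL-6. Of the 7 genes 5 rose, beside 2.92% of all probe sets that rose and 3.31% that changed in either direction, and Ctsb and Ctse did not pass. The median difference of the 7 was 3.90, against -0.07 for all probe sets. Whether more cells of a type or more RNA per cell gave a higher signal cannot be told apart in these bulk samples.

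The exopeptidases showed the widest separation. Ctsh read 13.10 and 12.56 in D2-IL6, against 6.70 and 5.86 in D2-Control, where both arrays were near background. The fitted difference was 6.55 ± 0.32 (adjusted p = 1.37e-06), or at least 5.35 when the controls are set at their background level. Ctsc read 12.17 and 12 in D2-IL6, against 7.10 and 6.44 in D2-Control, also near background. It rose by 5.32 ± 0.34, or at least 4.60 (adjusted p = 8.28e-06). In both genes the lowest IL-6 array lay more than 4 log2 units above the highest control. Ctsz read 11.94 and 12.27 in D2-IL6 and 7.87 and 7.24 in D2-Control, and rose by 4.55 ± 0.27 (adjusted p = 4.98e-06).

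Among the endopeptidases, Ctss read 11.99 and 12.05 in D2-IL6, against 8.84 and 7.40 in D2-Control, and rose by 3.90 ± 0.42 (adjusted p = 3.01e-04). Ctsl read 10.05 and 9.13 in D2-IL6, against 6.85 and 7.63 in D2-Control, and rose by 2.35 ± 0.37 (adjusted p = 0.00475). Some control arrays of Ctsz, Ctss and Ctsl were near background, which makes the size of these rises less certain. Ctsb read 15.31 and 15.34 in D2-IL6 and 15.10 and 14.95 in D2-Control, a difference of 0.30 ± 0.12 (adjusted p = 0.264). Ctse read 13.40 and 13.91 in D2-IL6 and 13.18 and 13.37 in D2-Control, a difference of 0.38 ± 0.15 (adjusted p = 0.287). For both genes the IL-6 arrays lay just above the controls without overlap, and the Ctse difference was 0.63 without D2-IL6 replicate 1. The 5 calls at D2 held under all 8 alternatives tried. The arrays of all 7 genes did not overlap in the higher direction, beside 16.3% of all probe sets.

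The promoters of 4 of the 5 genes that rose together were in the RefSeq table, 250 bases before to 50 bases after the annotated start, on build GRCm38.p6. They are shown to let a reader see what sequence lies at these starts. Capitals mark matches to 6 short patterns that were searched on both strands and chosen after a look at these sequences. The patterns were the PU.1-like GAGGAA, the STAT-like TTCNNNGAA, the GATA-like AGATAA, the E-box CACGTG, the C/EBP-like TTNCGNAA and the AP-1-like TGANTCA. The regions are chr7:88277835-88278134 on the plus strand for Ctsc, chr13:64370471-64370770 on the minus strand for Ctsl, chr3:95526536-95526835 on the plus strand for Ctss and chr2:174438990-174439289 on the minus strand for Ctsz. Each is written 5′ to 3′ in the direction of its gene.
Ctsc: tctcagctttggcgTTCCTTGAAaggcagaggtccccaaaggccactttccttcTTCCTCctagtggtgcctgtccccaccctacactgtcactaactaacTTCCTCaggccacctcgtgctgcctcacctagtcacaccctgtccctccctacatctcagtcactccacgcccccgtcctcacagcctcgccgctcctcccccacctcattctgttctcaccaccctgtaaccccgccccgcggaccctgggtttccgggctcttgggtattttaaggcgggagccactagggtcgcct
Ctsl: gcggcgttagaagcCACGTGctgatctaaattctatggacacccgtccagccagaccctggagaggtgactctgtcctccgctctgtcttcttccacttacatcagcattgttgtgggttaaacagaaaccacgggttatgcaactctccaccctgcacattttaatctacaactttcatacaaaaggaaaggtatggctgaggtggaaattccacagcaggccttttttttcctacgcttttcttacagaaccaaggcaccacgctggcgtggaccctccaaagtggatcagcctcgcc
Ctss: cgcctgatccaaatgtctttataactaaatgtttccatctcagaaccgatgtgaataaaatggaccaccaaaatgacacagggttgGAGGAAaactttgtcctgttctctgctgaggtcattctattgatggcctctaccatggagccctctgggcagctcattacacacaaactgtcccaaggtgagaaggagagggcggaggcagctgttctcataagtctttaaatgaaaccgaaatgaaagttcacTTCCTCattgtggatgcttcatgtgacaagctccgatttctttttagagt
Ctsz: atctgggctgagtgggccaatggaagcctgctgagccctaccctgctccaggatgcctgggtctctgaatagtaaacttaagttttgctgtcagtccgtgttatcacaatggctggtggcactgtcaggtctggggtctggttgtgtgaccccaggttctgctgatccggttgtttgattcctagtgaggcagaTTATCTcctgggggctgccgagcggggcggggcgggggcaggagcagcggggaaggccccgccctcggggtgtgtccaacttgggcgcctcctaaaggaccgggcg

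GAGGAA was found in 2 of the 4 promoters and in 28.3% of the 32851 promoters of the table. Ctss held it at -164 and, on the opposite strand, at position 1, and Ctsc held it on the opposite strand at -196 and -149, counted from the start to the leftmost base. TTCNNNGAA was found in Ctsc at -236, against 8.30% of all promoters, AGATAA in Ctsz on the opposite strand at -56, against 11.2%, and CACGTG in Ctsl at -236, against 7.15%. TTNCGNAA and TGANTCA were in none of the 4 and in 2.47% and 7.81% of all. No pattern was shared by all 4 promoters. A match is a description of letters, not a binding site.

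Genes of the wider lysosomal and antigen-processing pathway rose at D2 as well, in the named lists as follows. Of 20 measured lysosomal hydrolases and membrane proteins 8 rose and none fell, with a median of 1.02, beside 2.92% of all probe sets that rose. Man2b1, a mannosidase, rose by 4.38 (at least 3.69), Hexa, the alpha subunit of hexosaminidase, by 4.14 ± 0.37, Laptm5, a lysosomal membrane protein of blood cells, by 3.39 ± 0.15 and Gusb, beta-glucuronidase, by 2.71 ± 0.23. Of 7 measured genes of class II antigen processing 6 rose, with a median of 2.64. The largest rises there were H2-DMb1 (3.81 ± 0.36), Ifi30, a lysosomal thiol reductase (3.80 ± 0.35), H2-DMa (2.85 ± 0.52) and H2-Ab1 (2.64 ± 0.42). Of 9 inhibitors 2 rose, the stefin Cstb by 3.42 ± 0.38 and cystatin C (Cst3) by 2.05 ± 0.16. Both inhibit cysteine cathepsins and are expressed in many tissues.

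Of 9 genes of lysosomal targeting and activation 2 rose, progranulin (Grn) by 2.84 ± 0.22 and prosaposin (Psap) by 1.92 ± 0.15. Of the 6 other cathepsins 2 rose, Ctsa, a serine carboxypeptidase, by 3.36 (at least 2.93) and Ctsg, a granule serine protease, by 1.75 (at least 0.14). Of 6 granule serine proteases 3 rose: Elane by 3.50 ± 0.34, Prtn3 by 2.55 ± 0.27 and Ctsg, which both lists hold. Of 14 genes of lysosomal acidification and its regulators 1 passed, Mitf, but both groups were near background, so no difference is read from it. Of the 17 list genes named here, 9 held under every alternative: Cst3, Cstb, Grn, Gusb, Hexa, Ifi30, Laptm5, Man2b1 and Psap. The calls of the other 8 (Ctsa, Ctsg, Elane, H2-Ab1, H2-DMa, H2-DMb1, Mitf and Prtn3) were lost in 1 fit of all 20 arrays. Those of Ctsg and H2-DMa were also lost without D2-Control replicate 2 or D2-IL6 replicate 2, and that of Ctsg without D2-Control replicate 1.

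Marker genes of monocytes and macrophages moved with these rises. All 10 that were measured rose, with a median of 4.83, beside 2.92% of all probe sets. Their mean was 11.93 and 11.76 in D2-IL6, with 10 and 9 of 10 above background, against 7.19 and 7.35 in D2-Control, with 4 of 10 above background in each array. Cd14, Mpeg1, Ms4a6c, Ms4a6d and Adgre1 were near background in both D2-Control arrays. Of 12 neutrophil genes 5 rose, and of 7 granulocyte progenitor genes 4 rose. The neutrophil mean was 8.25 and 7.97 in D2-IL6 and 5.81 and 5.79 in D2-Control, and Camp, Ltf, Mmp9, Cxcr2, Ngp and Retnlg were near background in all 4 arrays. Of 10 genes of marrow resident macrophages 1 rose, and at most 2 of them were above background in any of the 4 arrays. The 8 erythroid genes did not pass, at a mean of 14.74 and 14.78 in D2-IL6 and 14.99 and 14.95 in D2-Control. The part of these cell types in the cathepsin rises was not tested.

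**Figure D2:**
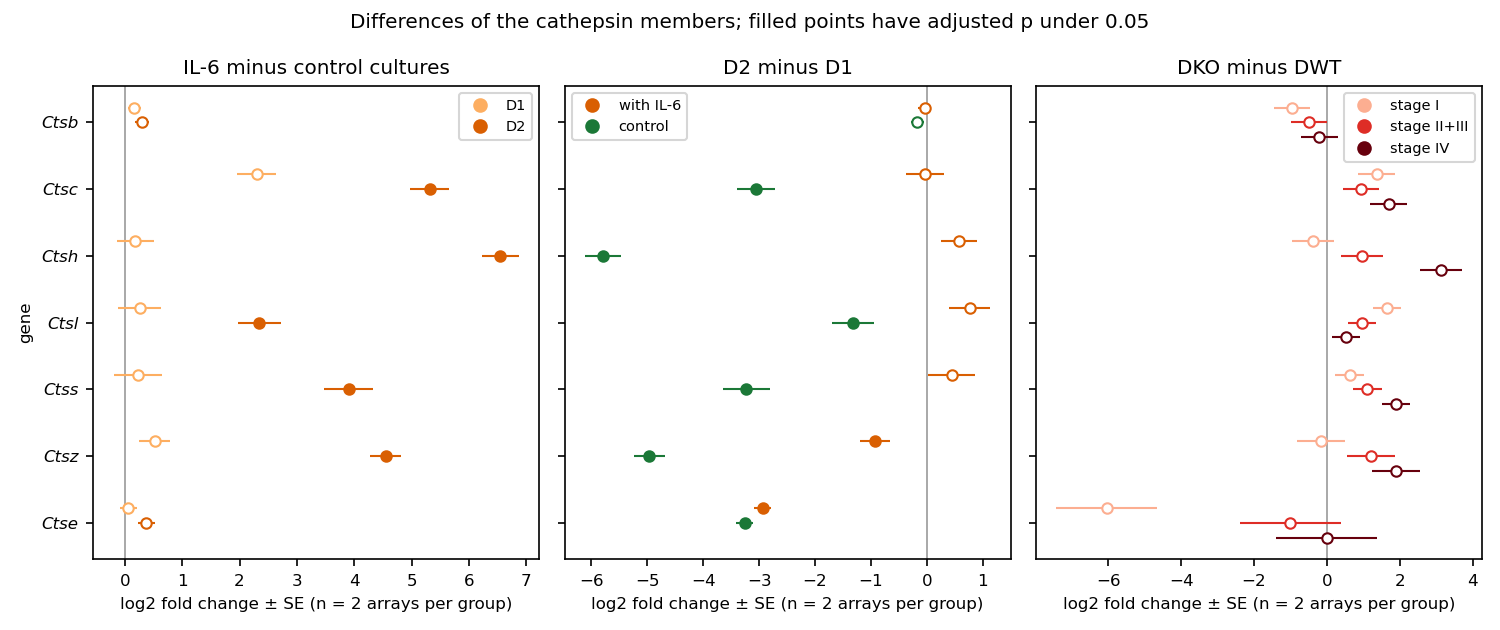
Log2 fold change of each cathepsin with its SE, 2 arrays per group, for IL-6 minus control at D1 and D2, for D2 minus D1 with IL-6 and in control, and for DKO minus DWT at the 3 stages. Filled points passed at an adjusted p under 0.05. At D2 the IL-6 differences run from 0.30 for Ctsb to 6.55 for Ctsh with 5 filled, and no DKO point is filled.

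The IL-6 differences were also compared between D2 and D1 as an interaction in the fit of the 8 cultured arrays. Of 7 cathepsins 4 had a larger IL-6 effect at D2, beside 1.17% of all probe sets (1.19% in either direction). The excess was 6.37 ± 0.46 for Ctsh (adjusted p = 9.84e-05) and 4.03 ± 0.38 for Ctsz (adjusted p = 5.53e-04). It was 3.67 ± 0.60 for Ctss (adjusted p = 0.0132) and 3.02 ± 0.48 for Ctsc (adjusted p = 0.0119). With the near-background controls set at their background level the excess was at least 5.17 for Ctsh and 2.31 for Ctsc. Ctsl had an excess of 2.08 ± 0.53 that did not pass (adjusted p = 0.140), and Ctse (0.31) and Ctsb (0.14) did not pass either. The calls of Ctss and Ctsc were lost on leaving out either D1-IL6 array or D1-Control replicate 2, which left 2 of 7 in each case. The call of Ctsc was also lost in 1 fit of all 20 arrays (adjusted p = 0.0702). All 10 monocyte and macrophage genes also had a larger IL-6 effect at D2.

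The comparison of D2 with D1 in control cultures asked how the cathepsins changed between the collections without IL-6. It shares the D2-Control arrays with the IL-6 comparison at D2 and the D1-Control arrays with that at D1, so the values are not independent of them. Of 7 genes 6 fell, beside 23.5% of all probe sets that fell and 43.2% that changed in either direction. Ctsh fell by 5.79 ± 0.32 (at least 4.59 against background, adjusted p = 3.27e-07), Ctsz fell by 4.96 ± 0.27 (adjusted p = 2.85e-07) and Ctsc fell by 3.05 ± 0.34 (at least 2.34, adjusted p = 4.33e-05). Ctss fell by 3.23 ± 0.42 (adjusted p = 1.36e-04). Every D2-Control array of these genes, with the values given above, lay under every D1-Control array, as did those of 32.4% of all probe sets.

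Ctsl fell by 1.32 ± 0.37 (adjusted p = 0.0159), a call lost after quantile normalization (-0.85, adjusted p = 0.152), without D1-Control replicate 1 and without D2-Control replicate 1. Ctse read 13.18 and 13.37 in D2-Control, against 16.53 and 16.52 in D1-Control, and fell by 3.25 ± 0.15 (adjusted p = 1.02e-07). The arrays of each group lay close together and the groups far apart. Ctsb differed by -0.17 ± 0.12 (adjusted p = 0.241). Quantile normalization moved the median of all probe sets to 0.03, against 0.17 as deposited, and Ctsb then fell by 0.35 (adjusted p = 0.0412).

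The comparison of D2 with D1 in IL-6 cultures asked the same in the presence of the cytokine, and shares its arrays with the IL-6 comparisons. Of 7 genes 2 fell, beside 20.2% of all probe sets (33.2% in either direction). Ctse read 13.40 and 13.91 in D2-IL6, against 16.57 and 16.61 in D1-IL6, and fell by 2.94 ± 0.15 (adjusted p = 2.50e-07). Both D2-IL6 arrays lay more than 2 log2 units under the D1-IL6 arrays. In 1 fit of all 20 arrays its adjusted p was 0.0856. Ctsz fell by 0.93 ± 0.27 (adjusted p = 0.0222), a call that was lost under 5 of 8 alternatives. The remaining differences were 0.76 for Ctsl, 0.58 for Ctsh, 0.45 for Ctss, -0.03 for Ctsc and -0.04 for Ctsb. None of these passed, although Ctsl did after quantile normalization (1.35, adjusted p = 0.0377). Without D2-IL6 replicate 2 the Ctsl difference was 1.23.

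Genes of the pathway lists changed in both directions between D1 and D2. Of all probe sets, 23.5% fell and 43.2% changed in either direction in control, and 20.2% and 33.2% with IL-6. The counts of inhibitors, acidification genes and other cathepsins, and of hydrolases with IL-6, were near these shares. Of 20 hydrolases and membrane proteins 11 fell and 1 rose in control cultures, and 5 fell and 2 rose with IL-6. Gaa, the acid alpha-glucosidase, fell by 5.12 ± 0.46 in control and fell by 3.43 ± 0.46 with IL-6, and Cd63, a tetraspanin of late endosomes, fell by 4.57 ± 0.21 in control and fell by 2.901 ± 0.21 with IL-6. Of 9 targeting genes 6 fell and 1 rose in control, and 5 fell and 1 rose with IL-6. The gene that rose was Lgmn, which encodes legumain, a protease that processes cathepsin precursors, by 3.99 ± 0.32 in control and 3.70 ± 0.32 with IL-6. Of 14 acidification genes 5 rose and 2 fell in control, and 5 rose with IL-6. Tfe3, a transcription factor of lysosomal genes, rose by 1.97 ± 0.29 in control and 2.01 ± 0.29 with IL-6. Class II antigen processing fell in control for 6 of 7 genes, where H2-DMa fell by 4.49 ± 0.52, and 0 of 7 passed with IL-6.

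Of 6 granule serine proteases 4 fell in each medium, beside 23.5% of all probe sets in control and 20.2% with IL-6. Mcpt8, a mast cell and basophil protease, passed in both media, with 1 D2-Control array and both D2-IL6 arrays near background. Its difference with IL-6 was -5.45 or lower, and its fitted difference of -6.08 ± 0.50 in control has an uncertain size. Elane, neutrophil elastase, fell by 5.49 ± 0.34 in control and fell by 2.94 ± 0.34 with IL-6. Of the 9 inhibitors 3 fell and 1 rose in control, where Cstb fell by 2.70 ± 0.38 and Cst3 fell by 2.08 ± 0.16, and 2 fell and 1 rose with IL-6. Of the 6 other cathepsins 2 fell and 1 rose in control, and 1 fell with IL-6. Ctsg fell by 4.94 ± 0.35 in control (at least 3.34) and fell by 4.93 ± 0.35 with IL-6. With IL-6 the size is also uncertain, as D2-IL6 replicate 1 was near background for Ctsg. Among the calls counted here, Mitf, Cst6 and Ctsk in control and Csta1 with IL-6 were near background in both groups. Of the monocyte and macrophage markers 9 of 10 fell in control, at a mean of 7.19 and 7.35 in D2-Control and 10.41 and 10.88 in D1-Control. With IL-6 5 rose and 1 fell, at a mean of 11.93 and 11.76 in D2-IL6 and 11.06 and 11.19 in D1-IL6. Of 12 neutrophil genes 6 fell in control, and 2 rose and 1 fell with IL-6. Of 7 granulocyte progenitor genes 5 fell in each medium, and of 7 mast cell and basophil genes 4 fell and 1 rose in each. Of 6 dendritic cell genes 3 fell in control and 0 passed with IL-6, and of 8 erythroid genes 3 rose and 2 fell in each medium. The part of these cell types in the cathepsin changes was not tested.

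**Figure D3:**
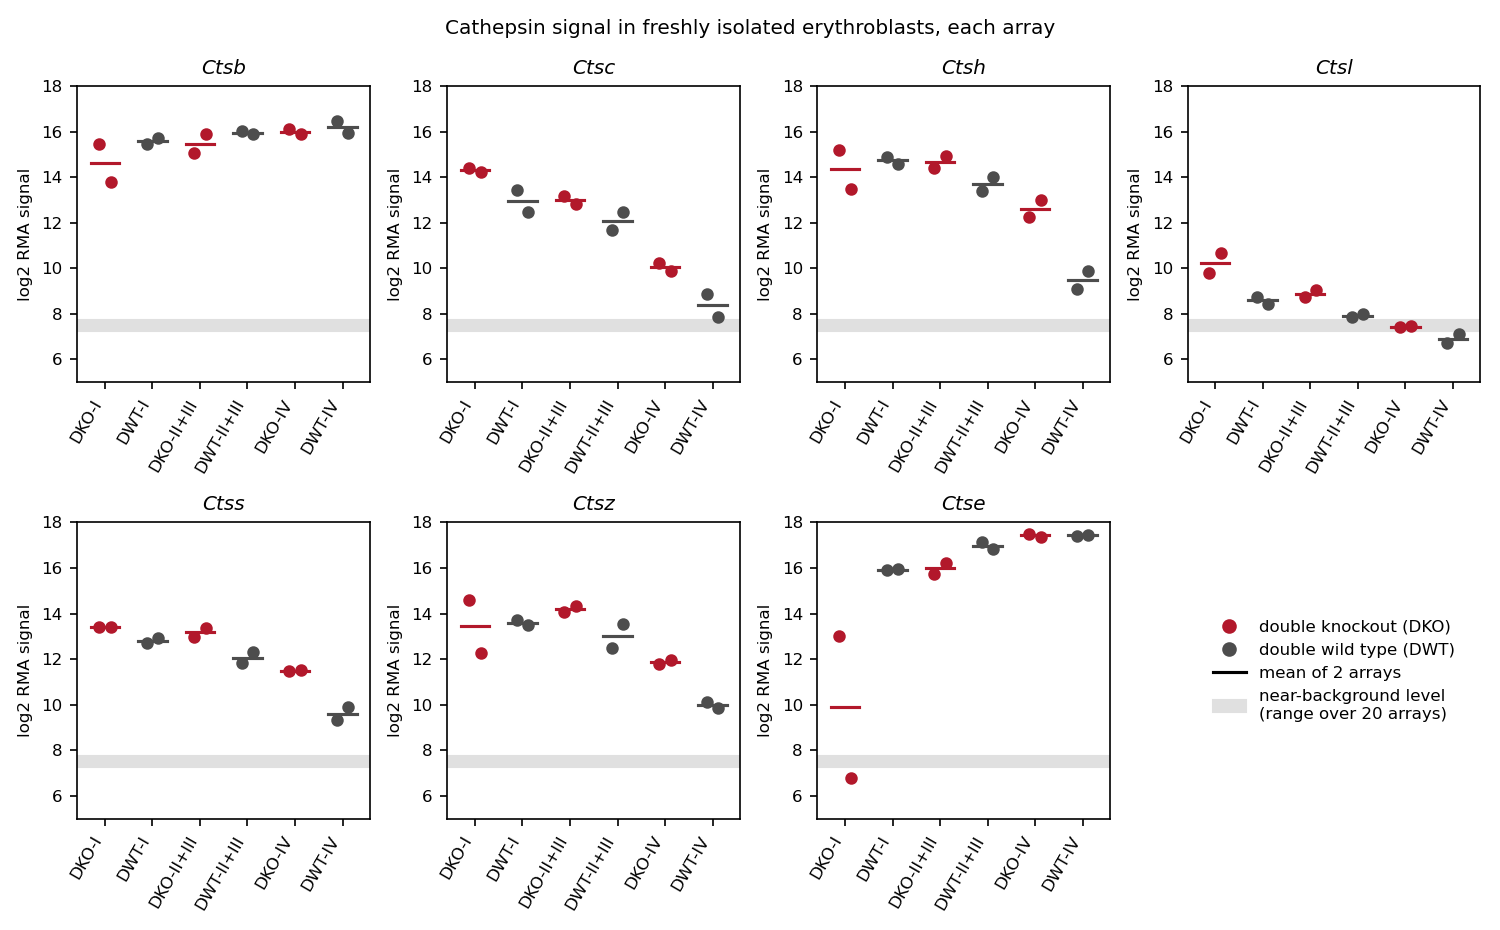
Log2 RMA signal of the 7 cathepsin genes in the freshly isolated cells labelled as erythroblasts, by stage with DKO left of DWT. Points are single arrays, horizontal lines are means of 2 arrays and the grey band is the range of the near-background level. At stage IV the DKO arrays of Ctsh (12.23 and 12.99) lie above the DWT arrays (9.10 and 9.87). Ctse of DKO-I replicate 2 (6.78) lies under the band while replicate 1 reads 13.02.

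In the freshly isolated cells, the knockout comparison asked how the cathepsins differ between DKO and DWT cells of the same labelled stage. No cathepsin passed at any stage. Diaph1, with its DKO arrays near background, fell in the limma fit at stages I and II+III (adjusted p = 0.00537 and 0.00933). At stage IV Diaph1 did not pass (-2.44 ± 0.43, adjusted p = 0.100), so a gene that did not pass there may still differ. At stage I, Ctse was much lower and Ctsl and Ctsc higher in the DKO arrays. Ctse read 13.02 and 6.78 in DKO-I, against 15.91 and 15.96 in DWT-I, a difference of -6.04 ± 1.39 (adjusted p = 0.117). Both DKO arrays lay under both DWT arrays, and replicate 2 lay far under replicate 1. Without DKO-I replicate 2 the difference was -2.92, and without replicate 1, where the remaining array was near background, it was -8.20 or lower. Either fit leaves 1 DKO-I array and drops the gap between the 2 arrays, so no p is given for it. In 1 fit of all 20 arrays the adjusted p of Ctse was 0.0106.

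Ctsl read 9.81 and 10.69 in DKO-I, against 8.74 and 8.45 in DWT-I, a difference of 1.66 ± 0.38 (adjusted p = 0.121, or 0.0341 in 1 fit of all 20 arrays). Without DKO-I replicate 2 it was 1.22. Ctsc read 14.42 and 14.22 in DKO-I, against 13.45 and 12.45 in DWT-I (1.37 ± 0.50, adjusted p = 0.287). Ctss read 13.43 and 13.43 in DKO-I, against 12.69 and 12.92 in DWT-I (0.62 ± 0.39). Without DKO-I replicate 2 the differences were 1.47 for Ctsc and 0.62 for Ctss. In these 3 genes both DKO arrays lay above both DWT arrays. Ctsh read 15.20 and 13.49 in DKO-I, against 14.90 and 14.56 in DWT-I. Ctsz read 14.61 and 12.27 in DKO-I, against 13.74 and 13.48 in DWT-I. For both genes the DKO arrays fell on either side of DWT. Their differences of -0.39 and -0.17 became 0.47 and 1.00 without DKO-I replicate 2. Ctsb read 15.47 and 13.80 in DKO-I and 15.46 and 15.72 in DWT-I (-0.95 ± 0.50), with replicate 2 as the low array, and the difference without it was -0.12.

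In limma 0 of 7 passed at stage I, beside 0.445% of all probe sets. At an unadjusted p under 0.05 there were 3 cathepsins (Ctse, Ctsl and Ctsc) and 3028 probe sets. Arrays of 3 cathepsins did not overlap in the higher direction, beside 26.7% of all probe sets, and those of 1 in the lower direction, beside 17.4%. Without DKO-I replicate 1, from 1 DKO-I array, the differences were 2.10 for Ctsl, 1.27 for Ctsc and 0.63 for Ctss. They were -1.79 for Ctsb, -1.34 for Ctsz and -1.24 for Ctsh. In the related lists 1 gene passed, the stefin A gene Csta2 (4.16 ± 0.67, adjusted p = 0.0267), which has near-identical copies, so its value is uncertain. That call was lost without either DWT-I array. The erythroid genes were lower in the same comparison: 6 of 8 fell, with a mean of 9.96 and 9.33 in DKO-I and 12.90 and 12.73 in DWT-I. Monocyte and macrophage genes had a mean of 14.54 and 13.61 in DKO-I and 13.15 and 13.05 in DWT-I, with 1 of 10 rising. All 12 neutrophil genes were above background in all 4 arrays, with a mean of 16.77 and 15.24 in DKO-I and 15.95 and 16.18 in DWT-I. In each of the 4 arrays the neutrophil mean lay above the erythroid mean. The part of cell composition in these differences was not tested.

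At stage II+III the 5 cysteine cathepsins other than Ctsb were higher in both DKO arrays than in both DWT arrays, by 0.93 to 1.20, and none passed. Ctsz read 14.08 and 14.34 in DKO-II+III, against 12.47 and 13.54 in DWT-II+III (1.20 ± 0.66). Ctss read 12.99 and 13.37 in DKO-II+III, against 11.82 and 12.31 in DWT-II+III (1.11 ± 0.39, adjusted p = 0.343). Ctsl read 8.73 and 9.04 in DKO-II+III, against 7.85 and 7.99 in DWT-II+III (0.97 ± 0.38). The gap between the nearest arrays of these 3 genes was under 1. Ctsh read 14.38 and 14.94 in DKO-II+III, against 13.41 and 14.00 in DWT-II+III (0.96 ± 0.57). Ctsc read 13.18 and 12.83 in DKO-II+III, against 11.70 and 12.45 in DWT-II+III (0.93 ± 0.50).

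Ctse was the member with both DKO arrays lower, at 15.73 and 16.24 in DKO-II+III and 17.14 and 16.83 in DWT-II+III (-0.999 ± 1.39, adjusted p = 0.932). The fit shares 1 spread per gene over all fresh arrays, and with DKO-I replicate 2 out of it the adjusted p of Ctse was 0.0213. Ctsb overlapped, at 15.04 and 15.90 in DKO-II+III and 16.01 and 15.89 in DWT-II+III. In limma 0 of 7 passed, beside 0.618% of all probe sets. At an unadjusted p under 0.05 there were 2 cathepsins, Ctss and Ctsl, and 1816 probe sets. The 5 genes without overlap in the higher direction stand beside 23% of all probe sets, and the 1 in the lower direction beside 21.2%. Erythroid genes averaged 12.03 and 12.88 in DKO-II+III and 14.55 and 13.91 in DWT-II+III, with 2 of 8 falling. Monocyte and macrophage genes averaged 13.47 and 13.78 in DKO-II+III and 11.38 and 12.49 in DWT-II+III, with 2 of 10 rising, and neutrophil genes averaged 15.22 and 15.24 in DKO-II+III and 11.21 and 12.91 in DWT-II+III, with 1 of 12 rising. The neutrophil mean lay above the erythroid mean in both DKO-II+III arrays and below it in both DWT-II+III arrays. The part of these cells in the cathepsin differences was not tested.

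At stage IV the exopeptidases and Ctss were higher in both DKO arrays than in both DWT arrays. Ctsh read 12.23 and 12.99 in DKO-IV, against 9.10 and 9.87 in DWT-IV, a difference of 3.13 ± 0.57 (adjusted p = 0.124). It passed in 1 fit of all 20 arrays (adjusted p = 0.0136) and with DKO-I replicate 2 out of the fit (adjusted p = 0.0234). Ctss read 11.49 and 11.51 in DKO-IV, against 9.31 and 9.91 in DWT-IV (1.89 ± 0.39, adjusted p = 0.169). With DKO-I replicate 2 out of the fit its adjusted p was 0.0491. The arrays of neither gene overlapped between genotypes. Ctsz read 11.77 and 11.95 in DKO-IV, against 10.10 and 9.84 in DWT-IV (1.89 ± 0.66, adjusted p = 0.481). Ctsc read 10.25 and 9.89 in DKO-IV, against 8.87 and 7.87 in DWT-IV (1.70 ± 0.50, adjusted p = 0.370). These arrays did not overlap either.

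Ctsl read 7.41 and 7.45 in DKO-IV and 6.71 and 7.12 in DWT-IV, all near background, so no difference could be read. Ctsb read 16.10 and 15.89 in DKO-IV and 16.47 and 15.93 in DWT-IV (-0.20 ± 0.50). Ctse read 17.49 and 17.38 in DKO-IV and 17.42 and 17.46 in DWT-IV (-0.01 ± 1.39). Both genes overlapped. In limma 0 of 7 passed, beside 0.046% of all probe sets. At an unadjusted p under 0.05 there were 4 cathepsins (Ctsh, Ctss, Ctsc and Ctsz) and 1588 probe sets. Counting Ctsl, 5 genes did not overlap in the higher direction, beside 22.4% of all probe sets, and 0 in the lower direction, beside 23.4%. Erythroid genes averaged 15.29 and 15.28 in DKO-IV and 15.62 and 15.33 in DWT-IV, and 0 of 8 passed. Monocyte and macrophage genes averaged 10.93 and 10.59 in DKO-IV and 9.01 and 9.55 in DWT-IV, and neutrophil genes 12.32 and 11.92 in DKO-IV and 7.72 and 9.93 in DWT-IV. None of either list passed, and their part in the cathepsin differences was not tested.

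The knockout effects were compared between stages as interactions. None of the 7 cathepsins passed between stages II+III and I or between stages IV and II+III, beside 0% of all probe sets in both. At an unadjusted p under 0.05 there were 942 and 662 probe sets in that order. Ctse was the cathepsin among the 942 (5.04 ± 1.96, adjusted p = 0.799) and Ctsh the one among the 662 (2.17 ± 0.81, adjusted p = 1.00). Without DKO-I replicate 2 the value of Ctse was 1.92. Without DKO-I replicate 1 the values for stages II+III and I were 2.54 for Ctsz and 2.20 for Ctsh, and the remaining DKO-I array of Ctse was near background. Both fits leave 1 DKO-I array, so no p is given for them.

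The steps between stages asked how the cathepsins differ from 1 labelled stage to the next, within each genotype. They use the same arrays as the knockout comparisons, and each pair of successive steps shares its stage II+III arrays. Between stages I and II+III, 0 of 7 cathepsins passed in DWT, beside 0.245% of all probe sets, and 0 at an unadjusted p under 0.05, as 1457 probe sets did. The differences ran from -1.03 for Ctsh to 1.05 for Ctse. The DWT mice can be followed from stage to stage by their sex. With the mouse as a block in a fit of the 6 DWT arrays, Ctse rose by 1.05 (adjusted p = 0.00502), at 17.14 and 16.83 in DWT-II+III and 15.91 and 15.96 in DWT-I. It also passed with DKO-I replicate 2 out of the fit of all fresh arrays (adjusted p = 0.0255).

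In DKO, 0 of 7 passed between stages I and II+III, beside 0.327% of all probe sets, with 3 cathepsins (Ctse, Ctsl and Ctsc) and 2038 probe sets at an unadjusted p under 0.05. Ctse was higher in both DKO-II+III arrays by 6.09 ± 1.39 (adjusted p = 0.145). Without DKO-I replicate 2 the difference was 2.97 and without replicate 1 it was at least 8.24, from a DKO-I array near background. No p is given for these fits, which leave 1 DKO-I array. Ctsl differed by -1.37 ± 0.38 and Ctsc by -1.32 ± 0.50, both with the DKO-II+III arrays below the DKO-I arrays, and by -0.93 and -1.42 without DKO-I replicate 2.

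Between stages II+III and IV, Ctsc and Ctss fell in both genotypes, and Ctsb and Ctse passed in neither. In DWT 4 of 7 fell, beside 3.57% of all probe sets (5.16% in either direction). Ctsh fell by 4.22 ± 0.57 (adjusted p = 0.0113), Ctsc fell by 3.70 ± 0.50 (adjusted p = 0.0113), Ctsz fell by 3.04 ± 0.66 (adjusted p = 0.0296) and Ctss fell by 2.45 ± 0.39 (adjusted p = 0.0128). Both DWT-IV arrays of each of these genes lay under both DWT-II+III arrays, as in 26% of all probe sets. All 4 calls were lost without DWT-IV replicate 1 and without DWT-II+III replicate 2, where 0 of 7 passed. The call of Ctsz was lost on leaving out any of the 4 arrays. With the mouse as a block 4 passed. Ctsl differed by -1.002 ± 0.38 (adjusted p = 0.162) from a DWT-IV level near background, and passed with DKO-I replicate 2 out of the fit (adjusted p = 0.0431). Ctse (0.46) and Ctsb (0.25) did not pass.

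In DKO 3 of 7 fell, beside 3.66% of all probe sets (7.77% in either direction). Ctsc fell by 2.94 ± 0.50 (adjusted p = 0.00832), Ctss fell by 1.68 ± 0.39 (adjusted p = 0.0275) and Ctsl fell by 1.45 ± 0.38 (at least 1.26, adjusted p = 0.0456). Ctsz (-2.35 ± 0.66, adjusted p = 0.0565) and Ctsh (-2.05 ± 0.57, adjusted p = 0.0563) missed the threshold, and both passed in 1 fit of all 20 arrays, after quantile normalization, without dim probe sets and with DKO-I replicate 2 out of the fit. For all 5 genes both DKO-IV arrays lay under both DKO-II+III arrays, as in 25.3% of all probe sets. Ctse (1.45) and Ctsb (0.53) did not pass, although Ctse did with DKO-I replicate 2 out of the fit (adjusted p = 9.81e-04). Leaving out 1 array of DKO-II+III or DKO-IV left 0 to 1 of 7: 0 without DKO-II+III replicate 1 or DKO-IV replicate 2, and 1 without either of the others. A smaller drop in DKO than in DWT was not shown, as the interaction above did not pass.

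The same step lowered other lysosomal genes. Of 20 hydrolases and membrane proteins 9 fell in DKO and 9 in DWT, beside 3.66% and 3.57% of all probe sets. Gusb changed by -2.88 ± 0.63 in DKO and -3.65 ± 0.63 in DWT, Man2b1 by -2.92 ± 0.53 in DKO and -3.21 ± 0.53 in DWT, and Cd63 by -2.54 ± 0.38 in DKO and -2.88 ± 0.38 in DWT. Of the 9 inhibitors 4 fell in each genotype, namely Serpinb1a, Cstb, Cst7 and Cst3, and Serpinb1a, an inhibitor of neutrophil serine proteases, changed by -3.62 ± 0.46 in DKO and -3.63 ± 0.46 in DWT. Of 9 targeting genes 3 fell in DKO and 2 in DWT, with the sorting receptor Sort1 changing by -3.48 ± 0.53 in DKO and -3.0 ± 0.53 in DWT. Of 7 class II genes 1 fell in each, Ifi30, by -2.09 ± 0.37 in DKO and -1.74 ± 0.37 in DWT. Of 14 acidification genes Atp6v0a1, a subunit of the proton pump, rose in DKO by 2.33 ± 0.50, and 0 passed in DWT. Those counts are near the shares of all probe sets that changed in either direction, 7.77% in DKO and 5.16% in DWT. Of 6 granule serine proteases Ctsg (-5.25) and Elane (-5.09) fell in DKO and Elane (-4.32) in DWT. The size for Ctsg is uncertain, as DKO-IV replicate 2 was near background for it. Of the 6 other cathepsins Ctsg fell in DKO, and Ctsf, a cysteine cathepsin, rose in DWT by 1.94 ± 0.38.

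Few of these calls were stable. None of the 13 list genes named in DWT and 2 of the 15 named in DKO, Serpinb1a and Sort1, held under every alternative. All 13 were lost in DWT without DWT-IV replicate 1 and without DWT-II+III replicate 2. Monocyte and macrophage markers fell for 5 of 10 genes in each genotype, and neutrophil markers for 8 of 12 in DKO and 7 of 12 in DWT. Of all probe sets 3.66% fell in DKO and 3.57% in DWT, and 7.77% and 5.16% changed in either direction. Erythroid markers rose for 7 of 8 genes in DKO and 2 of 8 in DWT. Their part in the cathepsin changes was not tested.

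**Figure D4:**
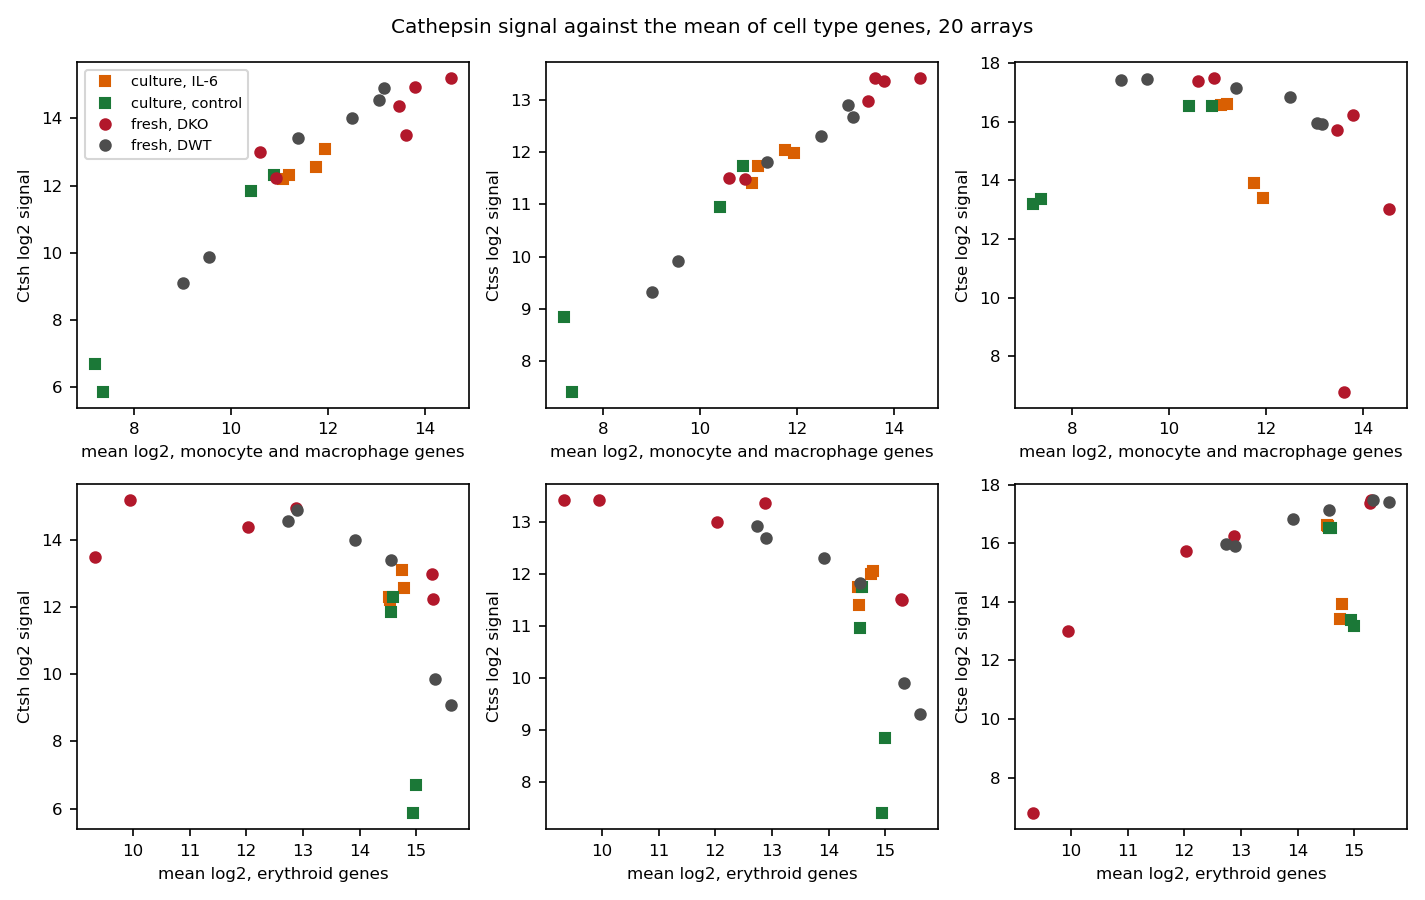
Log2 signal of Ctsh, Ctss and Ctse in each of the 20 arrays against the mean log2 signal of 10 monocyte and macrophage genes (top) and 8 erythroid genes (bottom). Squares are cultures and circles fresh cells, coloured by treatment or genotype. The D2-Control arrays sit at the lower left of the upper Ctsh and Ctss panels, with marker means of 7.19 and 7.35, and Ctse is lowest in the DKO-I arrays, where the erythroid mean is 9.96 and 9.33.

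The cathepsins also differed in which genes resembled them. For this description the mean of the 8 cultured and of the 12 fresh arrays was subtracted within each set, so that 20 arrays entered, and the 3 genes with the highest Pearson r were taken. The points share arrays, groups and normalization, and no p is given. DKO-I replicate 2 was among them, where Ctse read 6.78 and Ctsb 13.80, against 13.02 and 15.47 in replicate 1. The r of these partner genes was not computed without that array, so how far it sets them is not known. Ctsh was most like Pld4 (r = 0.99), Csf1r (0.98), a growth factor receptor of macrophages, and Tyrobp (0.98), an adaptor of myeloid receptors. Ctss was most like Spi1 (0.99), which encodes the transcription factor PU.1, Ptprc (0.98), which encodes CD45, and Anxa5 (0.98). Ctsz was most like Selplg (0.98), a selectin ligand of leukocytes, Hcls1 (0.97) and Apbb1ip (0.97). Ctsc was most like Casp1 (0.96), Hp (0.96), which encodes haptoglobin, and Tlr13 (0.96). Ctsl was most like Lyz1 (0.94), a lysozyme gene, Cd302 (0.94) and Cd86 (0.94). Ctse was most like Ogdh (0.98), a mitochondrial enzyme of the citric acid cycle, Tsn (0.97) and the replication helicase subunit Mcm2 (0.97). Ctsb was most like Arf5 (0.92), Ikzf5 (0.92) and the proliferation marker Mki67 (0.92).

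Among themselves, Ctsc, Ctsh, Ctsl, Ctss and Ctsz correlated at 0.65 to 0.96 over the 12 fresh arrays, at 0.89 to 0.98 without DKO-I replicate 2 and at 0.76 to 0.98 over the 8 cultured arrays. Ctsb and Ctse correlated with each other at 0.91 over the fresh arrays, at 0.65 without DKO-I replicate 2 and at 0.40 over the cultured arrays. Each of the pair ran against Ctsc over the fresh arrays, at -0.65 for Ctsb and -0.63 for Ctse (-0.70 and -0.79 without that array). In culture Ctsb ran with Ctsc instead (0.89). These values follow group means that differ and describe 20 arrays only.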

How the data were processed

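RNA of 20 mouse samples (700 pg total RNA each) was measured on Clariom S arrays, with 2 arrays per group. The authors deposited log2 signals made with RMA in Affymetrix Expression Console, per the submitters' processing notes. Versions are not given in the sources used here, and it is not stated whether all 20 arrays were normalized together. Scanner files were not used here. Probe sets were named from the platform annotation, and only those with 1 symbol were kept.

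The 8 cultured and the 12 fresh arrays were fitted separately with the R package limma 3.58.1 (R 4.3.3), using lmFit and a trended eBayes and no replicate block. P-values are two-sided and were adjusted by Benjamini-Hochberg over 19572 probe sets. The procedure was tested on simulated data. Signals under the 95th percentile of 23 background probe sets on their array were called near background, and "at least" values set such signals at that level. Only 2 arrays per group limit the precision.

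The labels pair DWT arrays across stages through the sex of the mouse. A fit of the DWT arrays with the mouse as a block was an alternative. The others were quantile normalization, no intensity trend, a filter on dim probe sets, 1 fit of all 20 arrays, leaving out each array and, chosen after seeing the data, keeping DKO-I replicate 2 out of the shared fit. The members, gene lists and tests were chosen with earlier results of these data known. The cathepsins are always named. Of each list up to 4 genes with the largest change among those that passed are named, and for each cathepsin the 3 genes most like it. Other names were chosen after their values were seen. Promoter sequences are from RefSeq, build GRCm38.p6.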

Additional observations from a re-analysis of the deposited data

Results flagged for a closer look

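The effect of IL-6 differed between D2 and D1 for 4 cathepsins by the interaction term of the limma fit. The difference of the log2 effects was 6.37 for Ctsh, 4.03 for Ctsz, 3.67 for Ctss and 3.02 for Ctsc. With D2-Control at background the excess was at least 5.17 for Ctsh and 2.31 for Ctsc. The calls of Ctss and Ctsc were lost without D1-Control replicate 2, without D1-IL6 replicate 1 and without D1-IL6 replicate 2. The call of Ctsc was also lost in 1 fit of all 20 arrays.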

How the results depend on the processing

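Of 24 cathepsin results that passed, 12 held under every alternative tried. Without dim probe sets, 1 of 7 cathepsins passed for IL-6 at D1 and 5 for DKO-IV against DKO-II+III. In 1 fit of all 20 arrays, 0 passed for D2-IL6 against D1-IL6, 2 for DKO-I against DWT-I, 1 for DKO-IV against DWT-IV, 1 for DKO-II+III against DKO-I and 5 for DKO-IV against DKO-II+III. With DKO-I replicate 2 out of the shared fit, 1 passed for DKO-II+III against DWT-II+III, 2 for DKO-IV against DWT-IV, 1 for DWT-II+III against DWT-I and 6 for DKO-IV against DKO-II+III. With the mouse as a replicate block, 1 passed for DWT-II+III against DWT-I and 4 for DWT-IV against DWT-II+III, the only comparisons it was fitted for. No paired analysis was possible for the cultures and the DKO arrays because the labels do not tie those arrays to a culture or a mouse. The cause of these changes was not tested.

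Leaving out 1 array gave counts of 0 to 1 for IL-6 at D1, 1 to 3 for D2-IL6 against D1-IL6, 2 to 4 for the difference of the IL-6 effects, 0 to 4 for DKO-I against DWT-I, 0 to 3 for DWT-IV against DWT-II+III, 0 to 4 for DKO-II+III against DKO-I, 0 to 1 for DKO-IV against DKO-II+III and 0 to 3 for the DKO effect at II+III minus that at I. Such a fit has 1 array in a group, so its p-values rest on the spread of the other groups. A higher count there is not read as support. Some small log2 differences changed sign on leaving out 1 array. For Ctsb they ran from -0.12 to 0.043 (D2-IL6 against D1-IL6), -0.0028 to 1.67 (DKO-II+III against DKO-I), -0.47 to 0.068 (DKO-IV against DWT-IV), -0.021 to 0.52 (DWT-IV against DWT-II+III), and, for the DKO effect, -0.37 to 1.31 (II+III minus I) and -0.15 to 0.71 (IV minus II+III). For Ctsc they ran from -0.12 to 0.054 (D2-IL6 against D1-IL6, where quantile normalization gave 0.26) and -0.94 to 0.067 (DKO effect, II+III minus I), and for Ctse from -0.057 to 0.046 (DKO-IV against DWT-IV). At D1 the IL-6 difference ran from -0.051 to 0.41 for Ctsh and -0.16 to 0.61 for Ctss. DKO-I against DWT-I ran from -1.24 to 0.47 for Ctsh and -1.34 to 1.00 for Ctsz, and DKO-II+III against DKO-I from -0.54 to 1.17 for Ctsh and -0.40 to 1.94 for Ctsz. Signals near background limit the size of differences of Ctsc, Ctse, Ctsh, Ctsl, Ctss and Ctsz.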

Other observations

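Of 9 cathepsin genes known from the rodent placenta (Cts3, Cts6, Cts7, Cts8, Ctsj, Ctsm, Ctsq, Ctsr and Ctsll3), which were looked at after their values were seen, 8 were never above background in the 20 arrays. The other, Ctsm, was above it in 5 arrays and reached 8.59.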
